A study of Triticum aestivum with 24 samples.

Results

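A drought-tolerant bulk of bread wheat inbred lines was set against a drought-susceptible bulk, both under drought. The members were the 3 arrays titled as the tolerant bulk in drought and the 3 titled as the susceptible bulk in drought, 6 of the 24 arrays of the series. They were chosen by these titles alone and not by any measured value. The tissue was the flag leaf at the reproductive stage, and the assay was an Affymetrix wheat array, which reads short probes grouped into probe sets.

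The 8 groups of the series were tolerant bulk drought, susceptible bulk drought, tolerant bulk irrigated, susceptible bulk irrigated, C306 drought, WL711 drought, C306 irrigated and WL711 irrigated, with 3 arrays each. C306 is the tolerant parent and WL711 the susceptible one, and each bulk pooled 10 recombinant inbred lines, so that any difference is between 2 pools of genotypes. A bulk gives an average over its lines. It cannot show how single lines vary or whether they share a level, and each side of the comparison had 1 pool. The series' design text calls the 3 arrays of a group biological replications, but the labels do not say whether they came from separate plants. The p-values measure only the spread between arrays of the same group, pooled over all 8 groups. How long and how severe the drought was is not stated in the labels.

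The flag leaf sits just under the ear and supplies much of the sugar that fills the grain. Under water shortage a leaf closes its stomata, carbon fixation falls, and protective proteins such as late embryogenesis abundant (LEA) proteins and dehydrins build up, many of them under the hormone abscisic acid. Bulks of recombinant inbred lines sorted by tolerance are used to even out the rest of the parents' genomes, so that the pools should differ most near the loci that set tolerance.

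All levels below are log2(signal + 16) with each array centred on its median over the tested probe sets, and all differences are tolerant minus susceptible bulk on that scale, which understates the change of dim probe sets. A probe set passed the test at a Benjamini-Hochberg adjusted p under 0.05 in limma, a moderated linear model fitted to all 24 arrays and 36707 probe sets. The SE of a probe set's difference comes from this model. It pools the spread over all 8 groups and is not that of the compared arrays alone. Array 3 of the tolerant bulk under drought stood apart. Its correlation over the tested probe sets was 0.932 and 0.923 with arrays 1 and 2 of its own group and 0.930 to 0.941 with the susceptible bulk, while tolerant arrays 1 and 2 correlated at 0.948 and the susceptible arrays with each other at 0.959 to 0.966. Its highest signal was 47272, against 110365 and 107679 on the other tolerant arrays and 49198 to 56011 on the susceptible ones. Results that rest on this array are therefore given with and without it. It could not be told from the labels what set it apart.

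The labelled tissue was borne out by its markers. All 7 leaf genes, among them the large subunit of the carbon-fixing enzyme Rubisco (rbcl), phosphoribulokinase (PRK) and the photosystem II proteins PsbO and PsbP, lay above the 75th percentile of signal, with a median percentile of 99.9. Their summed level before centring was 17.8 to 18.9 in the tolerant bulk and 17.8 to 18.0 in the susceptible bulk. Of 19 genes of the developing grain, 12 lay under the 40th percentile and 1, ALP, lay above the 75th, and their summed level was 12.7 to 13.0 in the tolerant bulk and 12.5 to 12.6 in the susceptible bulk. Of 6 histone and chromatin genes used as markers of dividing cells, 4 lay above the 75th percentile, with a median percentile of 82.85 and a summed level of 13.8 to 14.1 in the tolerant bulk and 14.1 in the susceptible bulk. In such bulk tissue, fewer cells of a type and less RNA per cell cannot be told apart.

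The bulks differed under drought in 2270 of 36707 probe sets (6.18%). The tolerant bulk was higher in 950 (2.59%) and lower in 1320 (3.6%), and the lower ones were the larger differences. The median called difference was 1.03 among the higher probe sets, a fold of 2.04, and -1.20 among the lower ones, a fold of 2.30. Past a difference of 2, there were 62 higher and 261 lower probe sets, and past 3 there were 8 higher and 77 lower. The 3 tolerant and the 3 susceptible arrays did not overlap in 2136 of the 2270 called probe sets (94.1%), against 25.4% of all tested probe sets. The same arrays gave the calls, so the first share describes the called probe sets and is not independent of the call.

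Without tolerant array 3 the count was 4854 (13.2%), of which 2805 were higher (7.64%) and 2049 lower (5.58%). Of the 2270 probe sets called on all arrays, 2118 were called in the same direction without it, which is 93.3% of the first list and 43.6% of the second. Leaving out tolerant array 1 or 2 instead left 1036 or 942 calls, and leaving out susceptible array 1, 2 or 3 left 1442, 1140 or 1024. Centring each array on its median over all probe sets gave 391 higher and 1517 lower calls and moved the median difference over all tested probe sets to -0.07, against 0.04 with the centring used here. The balance of higher and lower calls therefore depended on the scaling and on array 3.

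The difference also followed the signal level. Among the 3671 brightest of the tested probe sets, the median difference from the susceptible bulk was 0.26 for the mean of tolerant arrays 1 and 2 and -0.25 for array 3. Among the 3671 dimmest the medians were 0.01 and 0.15. Bright genes thus stood on opposite sides of the susceptible bulk in arrays of the same group.

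**Figure D1:**
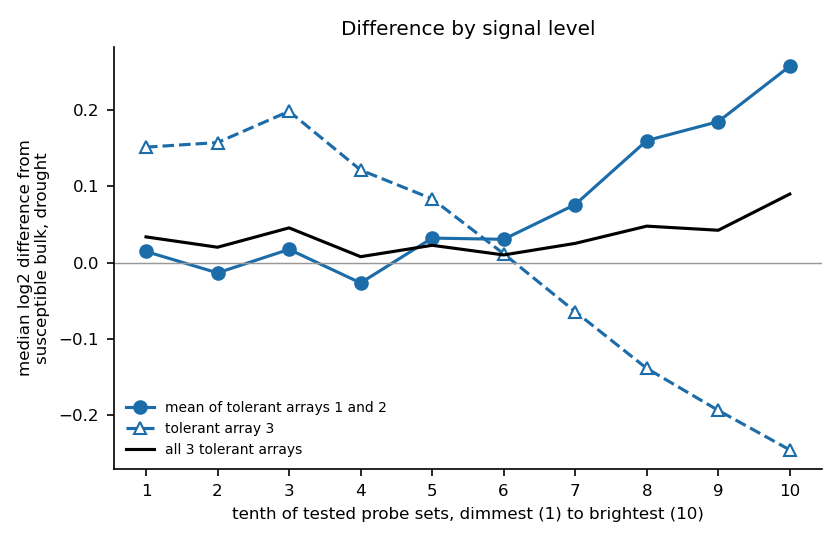
Median log2 difference of the tolerant bulk from the susceptible bulk under drought (y axis) in 10 equal groups of the tested probe sets ordered by mean signal (x axis, dimmest to brightest), for the mean of tolerant arrays 1 and 2, for tolerant array 3 and for all 3. In the brightest group arrays 1 and 2 lie at 0.26 and array 3 at -0.25, and the lines cross in the middle of the range.

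Few of these probe sets carry a gene name. The annotation supplied names 1273 probe sets, of which 955 were tested for 635 genes, and 10.2% of the named ones were called. Of the named genes 36 were higher and 48 lower in the tolerant bulk. Most are known only by a locus number (LOC and digits), and no role is given to them here.

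The largest difference of a named gene was that of LOC100037518. Its level was 8.76, 8.75 and 8.36 on the tolerant arrays and 14.23, 13.86 and 13.98 on the susceptible arrays. The groups lie far apart with no overlap, and no array within a group stands out. The difference was -5.40 ± 0.46 (SE of the limma fit, n = 3 arrays each, limma adjusted p = 5.02e-08), a fold of 42.3. Under irrigation the same gene averaged 7.00 in the tolerant bulk and 5.70 in the susceptible bulk. Drought against irrigation thus gave 1.62 in the tolerant bulk (adjusted p = 0.0153) and 8.32 in the susceptible bulk (adjusted p = 6.9e-12). LOC606307, whose probe set has the same cluster number in its name, differed by -4.03 ± 0.53. Probe sets of the 2 genes may bind each other's transcripts, so they are not separate evidence.

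A second pair, LOC543197 and LOC543150, had the same pattern, and both are read by probe sets of the x type, whose probes may bind transcripts of other genes. LOC543197 stood at 10.77, 11.25 and 10.59 in the tolerant bulk and at 14.42, 13.92 and 14.25 in the susceptible bulk, a difference of -3.33 ± 0.52 (limma adjusted p = 0.000278). Drought raised it in both bulks, by 1.85 in the tolerant bulk (adjusted p = 0.0143) and 5.40 in the susceptible bulk (adjusted p = 3.71e-08). For LOC543150 the difference was -3.41 ± 0.66, with a drought response of 0.84 in the tolerant bulk, which did not pass (adjusted p = 0.411), and 4.45 in the susceptible bulk (adjusted p = 1.79e-05). A second probe set of LOC543150 differed by -1.59 and did not pass (adjusted p = 0.204). Its name has the same cluster number as the probe set of LOC543197, so these 2 genes may not be separate evidence either. The susceptible bulk, not the tolerant one, held the high arrays in all 4 genes.

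LOC100125738 was at 7.52, 6.22 and 7.05 in the tolerant bulk and at 10.70, 10.21 and 10.33 in the susceptible bulk, a difference of -3.48 ± 0.58 (limma adjusted p = 0.000517). Its drought response was 1.02 in the tolerant bulk, where it did not pass, and 5.85 in the susceptible bulk. LOC542887 was at 7.32, 5.75 and 7.46 in the tolerant bulk and at 10.81, 10.83 and 10.96 in the susceptible bulk, a difference of -4.03 ± 0.49. In both genes the susceptible arrays sit close together and tolerant array 2 is the lowest.

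In LOC542774 and LOC542773 the drought response that passed was a fall in the tolerant bulk. LOC542774 was at 6.22, 6.22 and 4.84 in the tolerant bulk and at 9.83, 9.67 and 9.80 in the susceptible bulk, a difference of -4.01 ± 0.35 (limma adjusted p = 6.52e-08). Drought against irrigation gave -3.30 in the tolerant bulk (adjusted p = 5.35e-07) and 0.90 in the susceptible bulk, which did not pass (adjusted p = 0.0645). LOC542773 was at 4.34, 5.39 and 6.40 in the tolerant bulk and at 9.16, 9.88 and 9.11 in the susceptible bulk, a difference of -4.01 ± 0.43 (limma adjusted p = 1.34e-06). Its drought response was -5.06 in the tolerant bulk (adjusted p = 3.13e-08) and -0.49 in the susceptible bulk, which did not pass (adjusted p = 0.457). The lowest tolerant values lie near the bottom of the scale, where a fold is least exact, and a second probe set of LOC542773 differed by -2.45 ± 0.30.

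The other 4 of the 12 were LOC606366 (-2.65), LOC543111 (-2.61), LOC100125708 (-2.54) and LOC543383 (-2.48). LOC606366 had 3 other tested probe sets at -0.36 to -0.96, none of which passed, and LOC543111 had one at -1.95, which passed, and one at 0.10, which did not. A second probe set of LOC543383 stood at -1.81 and did not pass (adjusted p = 0.0952). Each of the 12 was also called without tolerant array 3 (background 5.58% of all tested probe sets lower). Each was called under cyclic loess scaling too (background 8.07% of all tested probe sets called and 5.03% lower). The 12 were chosen for large differences on the same arrays, so these counts are not independent of the choice. Between the bulks under irrigation 0 of 12 were called (3 at an unadjusted p under 0.05), against 14.2% of all tested probe sets. LOC543111 lost its call without tolerant array 1 or without susceptible array 1 or 3, and LOC100125708 without tolerant array 2, with an adjusted p of at most 0.0621, and LOC606366 lost its call with a pseudocount of 1 (adjusted p = 0.0567). Drought raised 2 of the 12 in the tolerant bulk (background 11.2% of all tested probe sets higher) and lowered 2 (background 7.63%), and raised 9 in the susceptible bulk (background 12.8%). These responses use the same drought arrays as the difference itself and are not independent of it.

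Named genes higher in the tolerant bulk differed by less, 0.98 to 1.56 for the 12 largest. AGP-S, the small subunit of ADP-glucose pyrophosphorylase, which makes the sugar donor for starch, was at 12.29, 12.47 and 11.93 in the tolerant bulk and at 11.27, 11.05 and 10.84 in the susceptible bulk. The groups do not overlap, and the difference was 1.18 ± 0.23 (SE of the limma fit, n = 3 each, limma adjusted p = 0.00264), a fold of 2.26. Drought against irrigation gave -0.36 in the tolerant bulk (adjusted p = 0.307) and -1.06 in the susceptible bulk (adjusted p = 0.00141).

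LOC542958 had the largest higher value, 1.56 ± 0.42, from 8.98, 8.25 and 7.91 in the tolerant bulk and 6.15, 6.88 and 7.44 in the susceptible bulk, where the arrays of each group spread over more than 1 unit. A second, brighter probe set of this gene had the opposite sign, at 10.31, 10.34 and 10.17 in the tolerant bulk and 10.87, 10.50 and 10.75 in the susceptible bulk, a difference of -0.44 that did not pass (adjusted p = 0.188), so the probe sets of LOC542958 disagree. LOC606363 was at 14.55, 13.55 and 14.22 in the tolerant bulk and at 12.95, 12.79 and 13.04 in the susceptible bulk, a difference of 1.18 ± 0.20. LOC543447 was at 12.13, 12.27 and 11.84 in the tolerant bulk and at 11.22, 10.83 and 10.89 in the susceptible bulk, a difference of 1.1 ± 0.19. Second probe sets of LOC606363 and LOC543447 differed by 0.49 and 0.51 and did not pass (limma adjusted p = 0.589 and 0.159). All 12 were also called without tolerant array 3 (background 7.64% of all tested probe sets higher) and under cyclic loess scaling (background 3.04% higher). They were chosen for large differences on the same arrays, so these counts are not independent of the choice. The calls of LOC542958, LOC543167, LOC542901, LOC780634 and LOC543332 each ended when any 1 of at least 2 of the other drought arrays was left out, and also without the filter on low signal, with an adjusted p of at most 0.175. Drought lowered 4 of the 12 in the tolerant bulk (background 7.63%) and 7 in the susceptible bulk (background 11.4%).

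**Figure D2:**
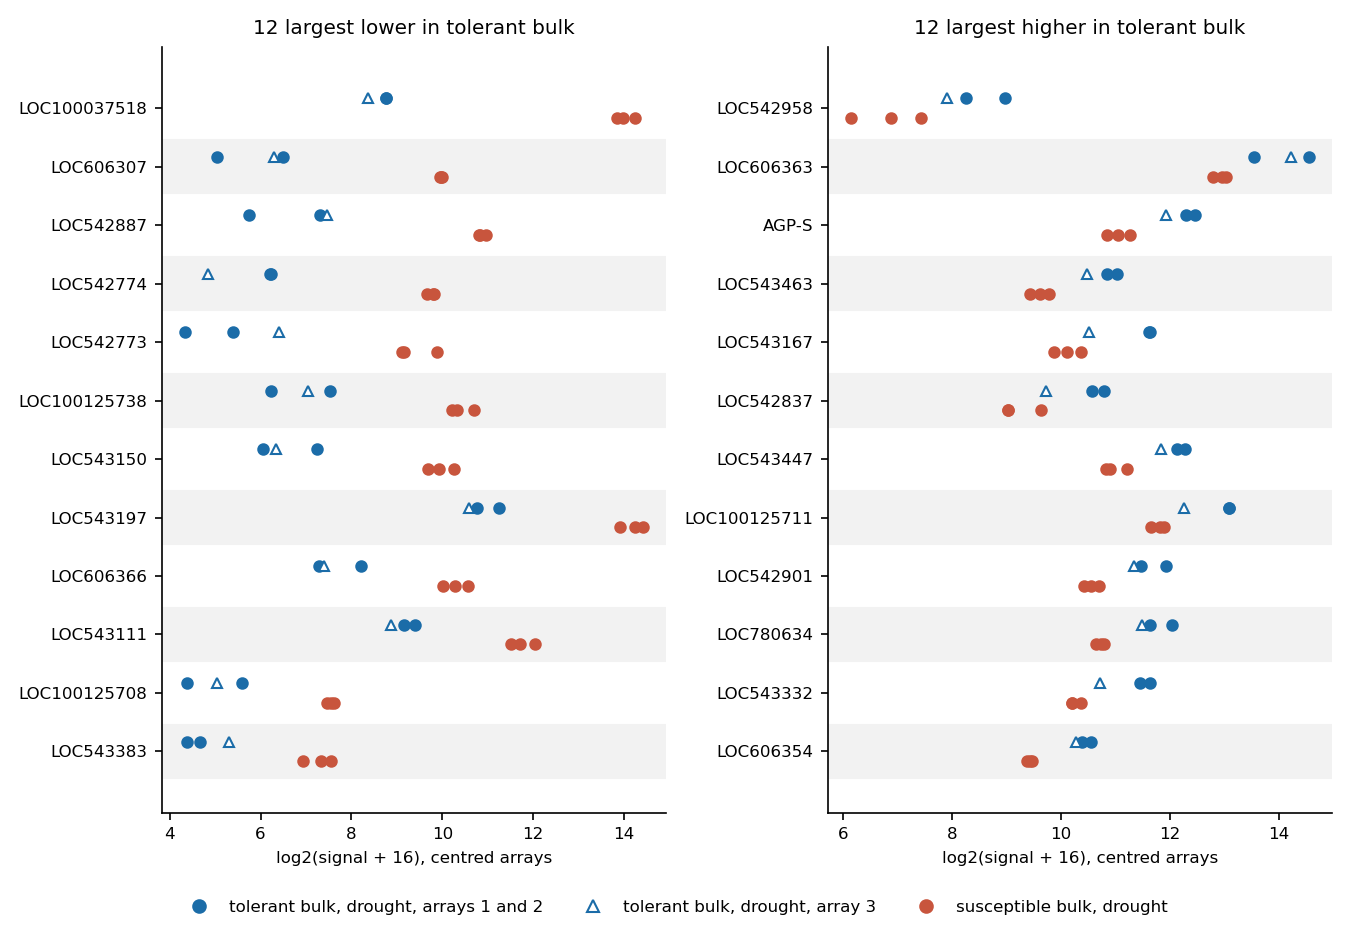
Level of each of the 12 named genes with the largest lower and the 12 with the largest higher value in the tolerant bulk under drought, one point per array (x axis, centred log2(signal + 16)). For LOC100037518 the tolerant arrays lie at 8.36 to 8.76 and the susceptible arrays at 13.86 to 14.23. Genes were shown only if their groups did not overlap.

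Unnamed probe sets held larger differences still. TaAffx.42782.1.A1_at was at 9.97, 9.49 and 8.91 in the tolerant bulk and at 4.45, 6.34 and 4.47 in the susceptible bulk, a difference of 4.37 ± 0.39 (limma adjusted p = 1.1e-07). It was also higher in the tolerant bulk under irrigation, by 2.71 (adjusted p = 7.72e-05), and in C306 against WL711 under drought, by 4.52 (adjusted p = 7.08e-09). At the other end, Ta.21342.1.S1_x_at was at 6.54, 4.56 and 6.13 in the tolerant bulk and at 12.43, 12.12 and 12.30 in the susceptible bulk, a difference of -6.54 ± 0.55 (limma adjusted p = 4.69e-08), which was also the most negative of all called. For Ta.13191.1.S1_x_at the difference was -6.24 ± 0.52, and for Ta.22966.3.S1_at it was 4.26 ± 0.78.

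Genes with a descriptive name could be read by function, 77 of them tested. Photosynthesis genes had small positive differences that did not pass. All 7 members had a positive difference with a median of 0.49, against 0.04 over all tested probe sets. In limma 0 of 7 passed, while 2 had an unadjusted p under 0.05, and under quantile scaling rbcl stood at -0.02 and the other 6 remained positive. With tolerant array 3 left out the median was 0.92 and 5 of 7 passed, against 7.64% of all tested probe sets higher in that fit, and under cyclic loess 1 did (background 3.04%). All 7 lie at or above the 96.8th percentile of signal, and the 3671 brightest probe sets had a median of 0.26 on tolerant arrays 1 and 2. Under irrigation the group's median was 0.88, and 4 of 7 were called higher (background 6.49%). These were the brightest rbcl probe set at 1.39, petC at 1.24, PsbO at 1.4 and PRK at 0.74. The highest signal was 120140 to 145929 on the tolerant irrigated arrays, against 45896 to 65379 on the susceptible irrigated ones. Whether this gap at the bright end bears on the photosynthesis values was not tested. The dependence on water regime passed for none of the 7 by its brightest probe set, with an adjusted p of at least 0.27. Of the 19 tested rbcl probe sets, 4 passed that test, against 2.84% of all tested probe sets. PRK, which regenerates the acceptor of CO2, shows the pattern under drought with 15.71, 15.68 and 14.67 in the tolerant bulk and 14.91, 14.54 and 14.78 in the susceptible bulk. Arrays 1 and 2 lie above every susceptible array and array 3 lies among them. PsbP stood at 15.72, 15.72 and 14.27 in the tolerant bulk and 14.79, 14.33 and 14.51 in the susceptible bulk, with array 3 the lowest of the 6. CAT1, a catalase that removes the hydrogen peroxide of photorespiration, was at 16.10, 16.19 and 14.92 in the tolerant bulk and at 15.23, 14.88 and 15.01 in the susceptible bulk, a difference of 0.70 that did not pass (adjusted p = 0.102) and that was 1.11 without array 3 (adjusted p = 0.000478).

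Rubisco's large subunit had 19 tested probe sets, of which 9 had a positive difference and 0 passed in limma (4 at an unadjusted p under 0.05). The brightest stood at 16.85, 16.81 and 15.11 in the tolerant bulk and 15.86, 15.45 and 15.56 in the susceptible bulk, and was 1.2 higher without array 3 (adjusted p = 0.00205). A dimmer one stood at 9.01, 8.31 and 8.25 in the tolerant bulk and 10.02, 11.60 and 11.14 in the susceptible bulk, a difference of -2.39 that did not pass (adjusted p = 0.144). The probe sets of this gene disagreed in sign and no direction is given for it.

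Of the LEA proteins, the best known drought-induced group, 0 of 3 tested members passed in limma (1 at an unadjusted p under 0.05). LEA1 was at 11.07, 10.92 and 13.49 in the tolerant bulk and at 12.49, 13.23 and 12.73 in the susceptible bulk. Array 3 was the highest of all 6 and arrays 1 and 2 the lowest, and the difference was -0.99 (adjusted p = 0.46), or -1.82 without array 3 (adjusted p = 0.0901). Drought raised LEA1 by 5.59 in the tolerant bulk and 5.68 in the susceptible bulk (limma adjusted p = 4.89e-06 and 1.3e-06). Rab15, a dehydrin, was at 8.13, 8.36 and 8.39 in the tolerant bulk and at 9.33, 9.75 and 9.62 in the susceptible bulk. Its groups do not overlap, but with a difference of -1.28 ± 0.46 it did not pass (adjusted p = 0.107). EM, a seed LEA protein, had a difference of 0.08.

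In translation, 2 of 8 genes were higher and none of the others passed, against 2.59% of all tested probe sets higher and 3.6% lower, the background of the group counts that follow too. TCTP, a growth-linked protein that binds the translation machinery, was at 15.63, 15.53 and 14.68 in the tolerant bulk and at 14.62, 14.38 and 14.45 in the susceptible bulk, a difference of 0.80 ± 0.20 (limma adjusted p = 0.0196). TEF1, a translation elongation factor, differed by 0.76 ± 0.18 (adjusted p = 0.013). Both calls ended without tolerant array 1 or 2 or susceptible array 2 or 3, and with centring over all probe sets, with an adjusted p of at most 0.169, and both held without tolerant array 3. Among 9 genes of carbohydrate metabolism, which include enzymes of glycolysis as well as of starch and fructan, 1 passed, AGP-S. Enzymes that break down fructan, a stored sugar polymer, were 1-FEH and 6-FEH, with differences of -0.28 and -0.38 that did not pass.

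Among 5 defence genes 1 was lower by its brightest probe set, the xylanase inhibitor XIP-I. It was at 12.59, 12.28 and 11.07 in the tolerant bulk and at 13.85, 13.18 and 13.38 in the susceptible bulk, a difference of -1.49 ± 0.41 (limma adjusted p = 0.0297). Array 3 was the lowest, and without it the difference was -1.03 and did not pass (adjusted p = 0.109). The call also ended without tolerant array 2 or any 1 of the susceptible arrays, with an adjusted p of at most 0.12. Drought raised XIP-I by 1.79 in the tolerant bulk and 3.89 in the susceptible bulk. The pathogenesis-related gene PR5 had a difference of -0.41 that did not pass, although its drought response was -3.22 in the tolerant bulk and -1.12 in the susceptible bulk. The lipid transfer protein gene LTP3 had a probe set at 0.20, which did not pass, and a second at -1.21, which did (adjusted p = 0.022) but not without tolerant array 1 or 2 or any 1 of the susceptible arrays.

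A few genes of other groups passed. COMT1, a methyltransferase of lignin synthesis, was at 12.44, 12.12 and 12.17 in the tolerant bulk and at 13.17, 12.85 and 12.88 in the susceptible bulk, a difference of -0.72 ± 0.15 (limma adjusted p = 0.00529). The zinc finger gene WZF1 had a difference of -1.20 ± 0.35, from 9.36, 8.72 and 9.49 in the tolerant bulk and 10.45, 10.36 and 10.35 in the susceptible bulk (adjusted p = 0.0428). The beta-tubulins split, with Tubb4 at 0.69 ± 0.19 (adjusted p = 0.0328) and tubb1 at -0.85 ± 0.19 (adjusted p = 0.00645). The histone gene H2A-3 differed by -0.86 ± 0.25 (adjusted p = 0.0402) and cys1 by 0.62 ± 0.17 (adjusted p = 0.0291). The calls of WZF1, Tubb4, H2A-3 and cys1 each ended when any 1 of at least 4 of the 6 arrays was left out, with an adjusted p of at most 0.317 over all alternatives, and all 4 held without tolerant array 3. Those of COMT1 and tubb1 held under every leave-out. In limma 0 of 5 redox genes and 0 of 6 grain genes passed, with 3 and 2 at an unadjusted p under 0.05.

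**Figure D3:**
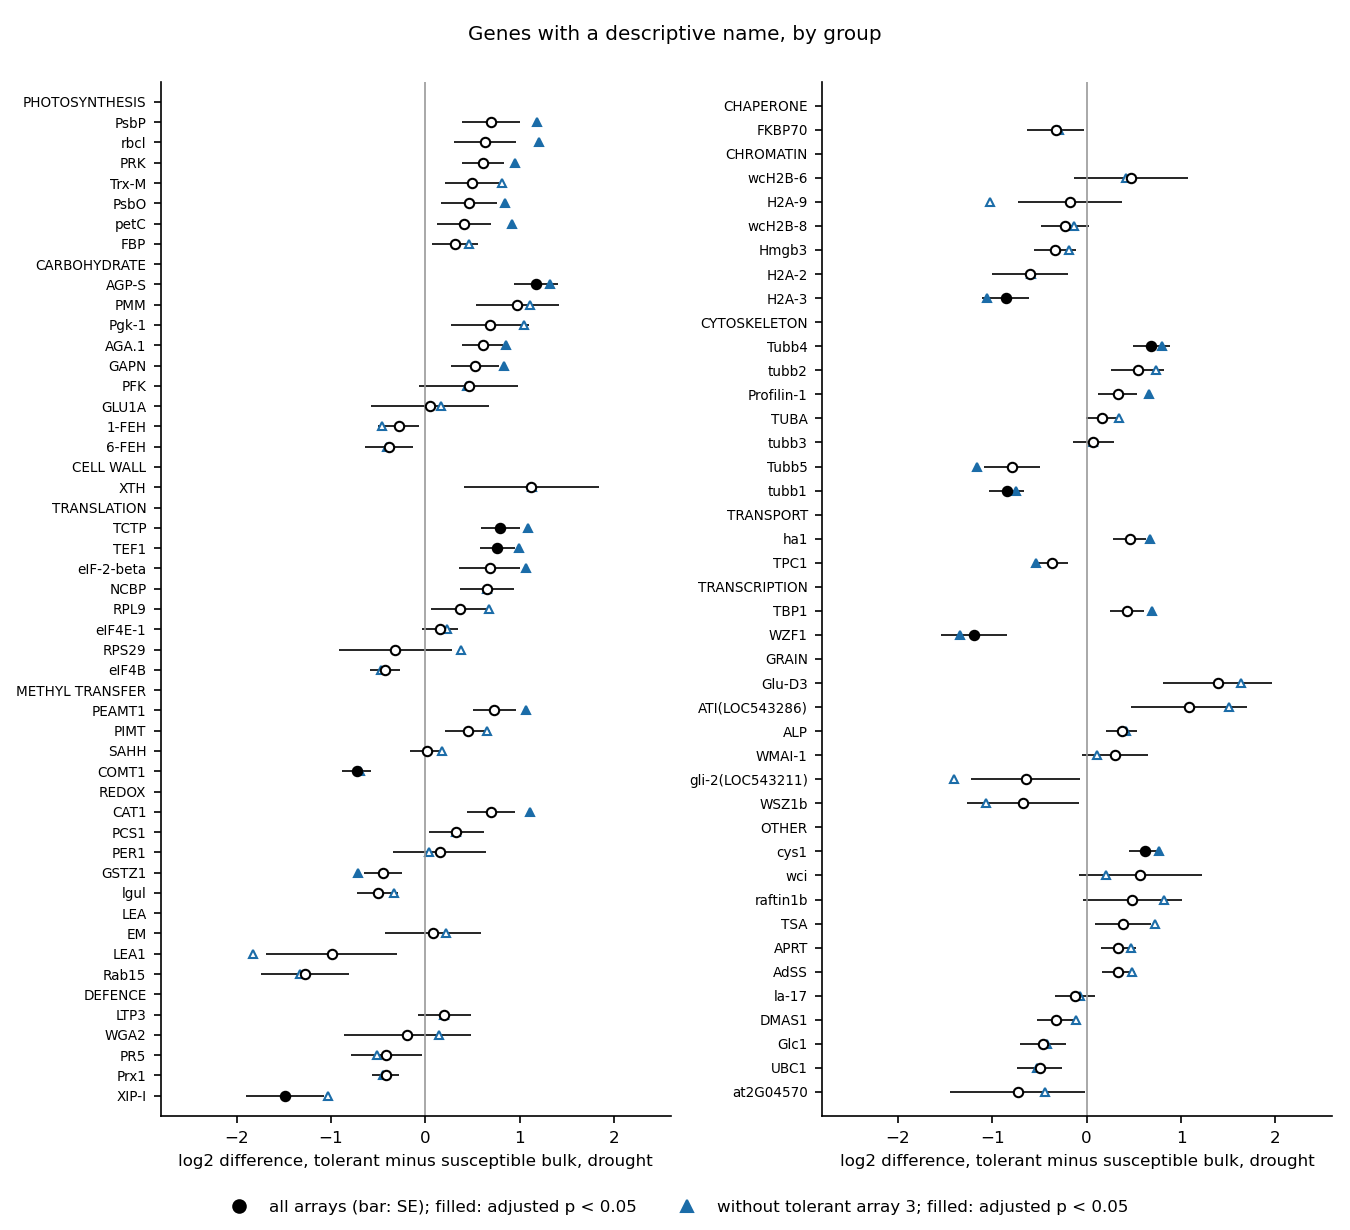
Log2 difference, tolerant minus susceptible bulk under drought (x axis), for genes with a descriptive name grouped by function, each by its brightest probe set, with all arrays (circles, bar as SE) and without tolerant array 3 (triangles); filled symbols passed at an adjusted p of 0.05. The 7 photosynthesis genes lie to the right of 0 in both, and 0 of 7 pass with all arrays against 5 of 7 without array 3.

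The same pair of bulks under irrigation shared no array with the drought comparison. There 5204 probe sets were called (14.2%), 2384 higher (6.49%) and 2820 lower (7.68%) in the tolerant bulk, or 785 and 6098 when centred over all probe sets. Leaving out susceptible irrigated array 1 or 3 or tolerant irrigated array 2 left 2943, 3098 or 3430. Both comparisons called 846 probe sets, 37.3% of the drought calls and 16.3% of the irrigated ones, and 753 of them (89%) ran the same way, 329 higher and 424 lower in the tolerant bulk. Without tolerant array 3 the shared probe sets were 2018, with 94.7% in the same direction. Over the 261 probe sets more than 2 lower in the tolerant bulk under drought, the median difference under irrigation was 0.08, against -0.36 over all 1320 lower ones.

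For those 261 probe sets the drought response had a median of 0.29 in the tolerant bulk and 3.06 in the susceptible bulk. Drought raised 65 (background 11.2%) and lowered 38 (background 7.63%) of them in the tolerant bulk, and raised 207 in the susceptible bulk (background 12.8%). The tolerant median was 0.26, with 60 raised, when tolerant array 3 was left out. The 950 higher probe sets were lowered by drought in 189 cases in the tolerant bulk (background 7.63%), or 98 without array 3, and in 547 in the susceptible bulk (background 11.4%). As these responses contain the drought arrays that chose the probe sets, they describe the levels behind the difference and test nothing.

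Whether the bulk difference depended on the water regime was tested too. That test called 1044 probe sets (2.84%), 364 higher (0.992%) and 680 lower (1.85%) under drought than under irrigation. It called 881 without tolerant array 3, of which 338 were higher and 543 lower. Leaving out susceptible drought array 1, 2 or 3 left 610, 648 or 582, and susceptible irrigated array 1 or 3 left 592 or 658. Centring on the median over all probe sets gave 598 higher and 387 lower, no centring 674 and 710, and quantile scaling 683 and 762, so this split turned with the scaling. Among named genes 9 were higher and 44 lower. All but 1 of the 12 largest lower genes passed this test, LOC543111 being the exception, though LOC543150 did not without tolerant array 3 (adjusted p = 0.065), and 1 of the 12 largest higher genes did, LOC543447, while 5 of those 12 were called higher under irrigation too (background 6.49%). Since the drought difference that chose these genes is a term of the test, the counts describe them and are not independent of the choice. A second probe set of LOC543447 had a gap of 0.61 that did not pass this test (limma adjusted p = 0.315). LOC606324 had the opposite sign to LOC100037518. At 10.87, 10.83 and 10.52 in the tolerant bulk and 9.90, 9.68 and 9.76 in the susceptible bulk under drought, its difference was 0.95 ± 0.20, against -0.26 under irrigation, and the gap of 1.21 passed (adjusted p = 0.0179), though not without tolerant irrigated array 1 or susceptible drought array 2.

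The parents under the same drought gave a comparison of C306 against WL711 that shares no array with the bulks. It called 5222 probe sets (14.2%), 1985 higher (5.41%) and 3237 lower (8.82%) in C306, or 1120 and 4983 when centred over all probe sets and 2906 and 2846 under cyclic loess. Fitted on the 2 parent groups alone it called 866, with 431 higher and 435 lower, and of the 145 shared with a fit on the 2 bulk groups alone 38.6% ran the same way. In the fit on all groups, 618 of the 5222 were also called between the bulks, 27.2% of the bulk calls and 11.8% of the parent calls. Of the 618, 206 (33.3%) ran the same way, 61 higher and 145 lower on the tolerant side. The others were opposite, with 215 higher in the tolerant bulk but lower in C306 and 197 the reverse. Without tolerant array 3 the share with the same direction was 27.5%, and with each parent array left out in turn it ran from 25.5% to 45.3%.

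The parent arrays were themselves uneven. The spike-in controls of C306 drought arrays 1 and 3 stood at 14.1 and 13.6 on the log2 scale, against 12.7 on array 2 and 11.8 to 12.7 on the WL711 drought arrays. Leaving both out, which leaves 1 C306 array that is assumed to vary like the other groups, gave 1161 parent calls, with 289 shared and 43.6% of them in the same direction. C306 array 1 or array 3 left out alone gave 3072 or 3184 parent calls. Without WL711 drought array 1 the share was 45.3%. The shared calls ran in opposite directions more often than in the same one under every one of these settings.

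Bulk and parent differences were themselves compared, and 5710 probe sets differed (15.6%), 3277 higher (8.93%) and 2433 lower (6.63%) in the bulks, or 2766 and 3643 under cyclic loess. Of the 28 named genes called in both comparisons, 8 ran the same way and 20 the opposite way, and the difference between the comparisons passed for 21. Both differences that chose these genes are terms of this test. The count and the adjusted p of the gaps describe the genes and are not independent of the choice. LOC542774 was -4.01 in the bulks and 4.01 in the parents (limma adjusted p of the gap = 3.05e-11). LOC542773 was -4.01 in the bulks and 5.35 in the parents (adjusted p of the gap = 6.62e-11). LOC780687 was -1.64 ± 0.21 in the bulks, from 8.65, 8.30 and 8.33 in the tolerant bulk and 10.21, 10.08 and 9.92 in the susceptible bulk, and 3.14 in the parents. The tolerant side was thus the low one in the bulks and the high one in the parents for all 3 genes. LOC543422 ran the same way in both, at -1.90 ± 0.22 in the bulks and -1.36 in the parents, and was 8.72, 8.30 and 8.51 in the tolerant bulk against 10.72, 10.22 and 10.30 in the susceptible bulk. AGP-S was 1.18 in the bulks and -1.22 in the parents, and COMT1 -0.72 and 1.50.

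Differences held in the same direction in the bulks under both regimes and in the parents under drought made up 2.69% of the drought bulk calls. How many would be shared by independent calls was not tested. There were 61 such probe sets, 19 higher and 42 lower on the tolerant side, or 151 without tolerant array 3. The named one was LOC606354, at 10.38, 10.55 and 10.28 in the tolerant bulk and 9.47, 9.37 and 9.44 in the susceptible bulk. Its difference was 0.98 ± 0.20 under drought (limma adjusted p = 0.00398), 0.99 under irrigation (adjusted p = 0.00167) and 0.83 between the parents under drought (adjusted p = 0.00651). Drought changed it by -0.07 in the tolerant bulk and -0.05 in the susceptible bulk, neither of which passed. In C306 drought raised it by 1.74 (limma adjusted p = 1.01e-06), while the change of 0.26 in WL711 did not pass (adjusted p = 0.386). Under irrigation it stood at 8.57, 8.35 and 8.61 in C306 and 9.01, 9.22 and 9.25 in WL711, so the parents had the opposite order there.

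**Figure D4:**
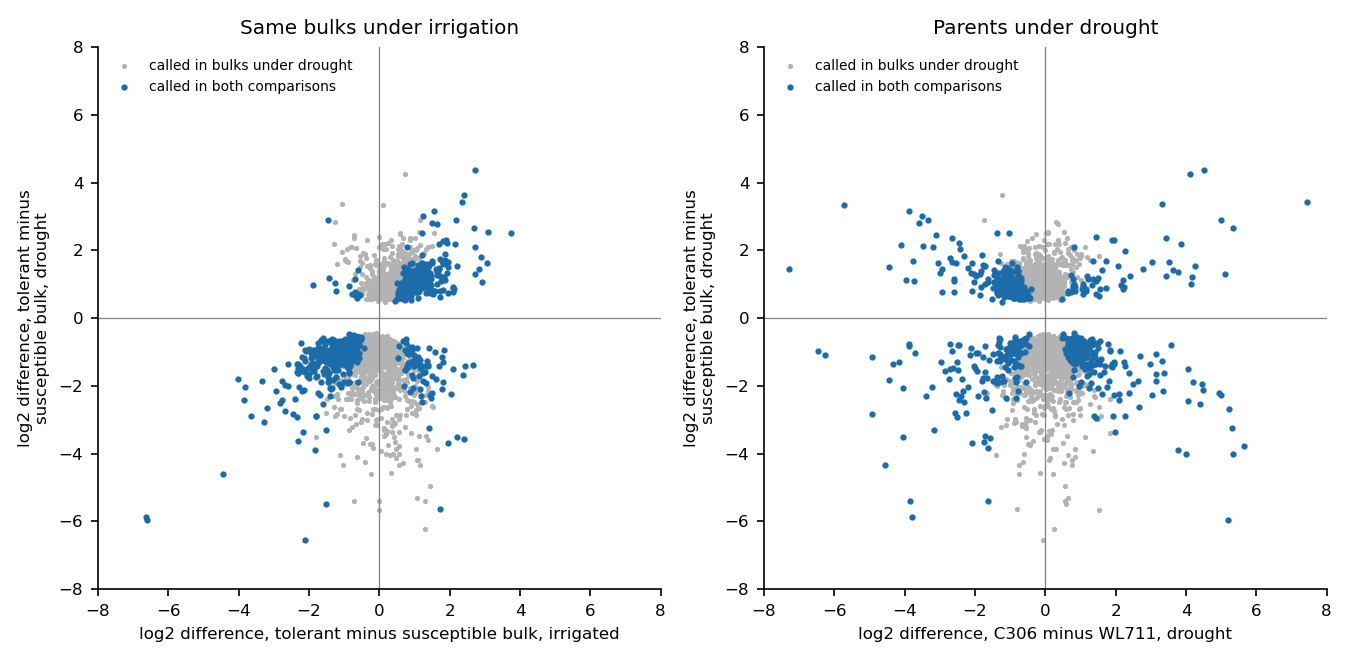
Log2 difference between the bulks under drought (y axis, both panels) against that of the same bulks under irrigation (left x axis) and that of the parents C306 and WL711 under drought (right x axis), for the probe sets called between the bulks under drought; blue points were called in both comparisons. Of the 846 blue points on the left 753 lie in the quadrants of equal sign, and of the 618 on the right 206 do.

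Where each bulk stood under drought was read on probe sets chosen without the bulks, 931 raised and 266 lowered by drought in both parents. Drought raised 9.23% and lowered 12% of all tested probe sets in C306, and raised 10.4% and lowered 9.02% in WL711. The score is the mean level of the first set minus that of the second. It was 1.07, 0.90 and 1.14 on the tolerant drought arrays and 1.47, 1.51 and 1.53 on the susceptible drought arrays, means of 1.04 ± 0.12 and 1.50 ± 0.03 (SD, n = 3 each). Every tolerant array lay below every susceptible one, array 3 included. Under irrigation the bulks stood in the same order, at -0.69 ± 0.04 in the tolerant bulk and -0.38 ± 0.03 in the susceptible bulk. The gap, tolerant minus susceptible, was -0.47 under drought, or -0.52 without tolerant array 3, and -0.31 under irrigation. Between irrigation and drought the score rose by 1.73 ± 0.07 in the tolerant bulk and 1.88 ± 0.02 in the susceptible bulk (SE, n = 3 arrays each), so most of the drought gap was present under irrigation.

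Choosing the probe sets without C306 arrays 1 and 3 brought the drought gap to -0.15, and choosing them without WL711 drought array 1 gave -0.60. On the parents themselves, WL711 drought array 1 scored 0.40 while the other 2 scored 2.23 and 2.42. Of the 931 raised probe sets, 87 (9.34%) were lower and 15 (1.61%) higher in the tolerant bulk under drought, against 3.6% and 2.59% of all tested. Of the 266 lowered ones, 25 (9.4%) were higher and 10 (3.76%) lower.

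**Figure D5:**
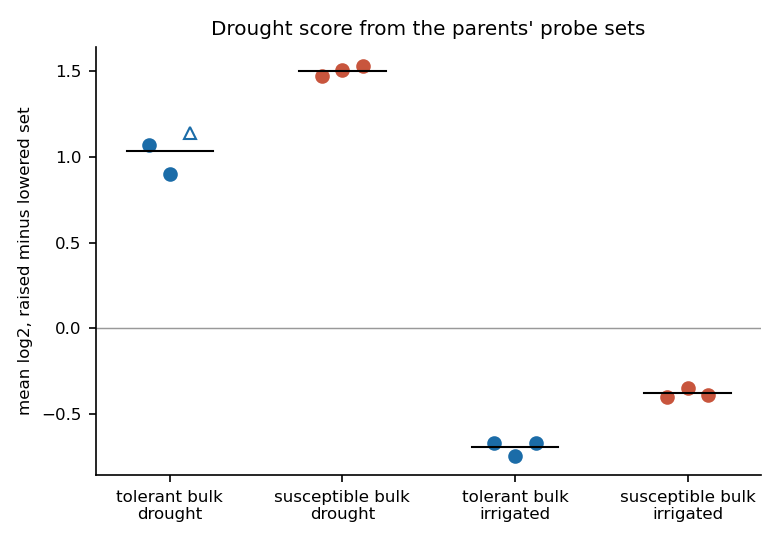
Drought score of each bulk array (y axis, mean centred log2 level of 931 probe sets raised by drought in both parents minus that of 266 lowered in both; triangle, tolerant array 3; line, group mean). The tolerant drought arrays lie at 0.90 to 1.14, below the susceptible ones at 1.47 to 1.53, and the irrigated arrays keep that order below 0.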

How the data were processed

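Each deposited value is the intensity of a probe set, not on a log scale. The submitters' processing notes give GCOS 1.2 as the tool, and per the labels biotin-labelled cRNA was made from 8 ug of TRIzol-extracted RNA. After trimming 2% at both ends the array means fell within 500.091 and 500.113, a sign of scaling before deposit. Without detection calls a low signal cannot be told from background. The arrays' number limits the precision.

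From these, log2(signal + 16) was computed. Of 61290 probe sets, 111 controls and the 40% of lowest mean signal (under 48.61) were dropped, which left 36707. Array medians spread over 0.387, above the limit of 0.3, so arrays were centred on the tested probe sets' median. Testing used limma 3.58.1 (R 4.3.3) with a mean per group over 8 groups, moderation with a trend (residual 16, prior 8.32 degrees of freedom), and two-sided Benjamini-Hochberg adjustment per comparison. None of 276 array pairs held identical values.

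The platform annotation is old. It names 1273 probe sets of 771 genes, 770 of them in the gene table of IWGSC CS RefSeq v2.1, which was used for names and neighbours. Named in the text are, among called probe sets with non-overlapping arrays, the 12 genes largest in either direction, then the 5 largest differences of response either way, up to 10 genes called in bulks and parents, members of the gene groups, and up to 2 unnamed probe sets per direction. Gene groups count a gene by its brightest tested probe set. The comparison, the groups and the lists were chosen with earlier results of these data known. Probe and transcript sequences were not used here.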

Additional observations from a re-analysis of the deposited data

Results flagged for a closer look

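The bulk difference depended on the water regime in 1044 probe sets by the test of that dependence. Among named genes the 5 largest positive values, drought difference minus irrigated difference, were LOC542856 at 1.75, LOC100125744 at 1.28, LOC543378 at 1.23, LOC606324 at 1.21 and LOC606332 at 1.16. Of these, LOC606324 had a called difference under drought. The other 4 did not, and under irrigation they stood at -1.55, -1.49, -1.67 and -1.33. LOC606332 lost its call under 13 alternatives. The 5 most negative values were LOC100037518 at -6.70, rbcl at -5.23 in 1 of its dimmer probe sets, LOC100125738 at -4.82, LOC542773 at -4.57 and LOC606307 at -4.33. That of rbcl lost its call when any of 10 arrays was left out.

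Bulk and parent differences under drought differed in 5710 probe sets by the test of that difference. Named genes called in both comparisons, with bulk arrays not overlapping, were ranked by the size of their bulk difference. Among the 10 largest, LOC542773 at -9.35, LOC542774 at -8.02, LOC543111 at -5.29 and LOC780687 at -4.79 passed. LTP3 at -2.25, LOC542793 at -2.10 and LOC606363 at 2.12 passed as well. Each value is the bulk difference minus the parent difference, and both terms chose these genes. Other probe sets of LOC543111 had gaps of -4.43 and 1.36, which both passed with opposite signs (limma adjusted p = 0.000456 and 0.00618). The parent difference of LOC543111 also lost its call without WL711 drought array 2. A second probe set of LOC606363 had a gap of -0.38 and the brightest of LTP3 -0.42. Neither passed (adjusted p = 0.739 and 0.541). Other named genes passed too, such as LOC100037518 at -5.97 and AGP-S at 2.40 (limma adjusted p = 6.33e-07 and 1.59e-05).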

How the results depend on the processing

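Calls between the bulks under drought numbered 2270, and 942 to 4854 with each array left out in turn. Pseudocount 1 gave 816 higher and 1144 lower, no filter 284 and 1304, no centring 1471 and 1408, quantile scaling 1471 and 1493, cyclic loess 1115 and 1847, and a fit on these 2 groups alone 607 and 1137. Quantile scaling without tolerant array 3 gave 4848. Calls under irrigation ran from 2943 to 4257 over the leave-outs and were 8521 with the groups alone, with 967 higher and 5303 lower without the filter. Those of the dependence on water regime ran from 582 to 1066, with 1655 alone and 429 higher and 371 lower without the filter. Parent calls ran from 3072 to 7158 and were 866 alone and 1161 without C306 drought arrays 1 and 3, with 1079 higher and 4304 lower without the filter. Bulk against parents ran from 4089 to 7649 and gave 2227 alone and 2084 without those C306 arrays. The gap in drought score ran from -0.52 to -0.40 over the leave-outs, and was -0.60 with probe sets chosen without WL711 drought array 1 and -0.15 without C306 drought arrays 1 and 3. Replicate numbers were not used to pair the samples. The deviations of same-numbered bulk drought arrays correlated at 0.19, -0.14 and 0.09. With 3 arrays per group these values cannot settle whether same-numbered arrays were paired. The replicate block gave 2274 calls in place of 2270. Of 137 results of named genes, 67 were called, 36 of them under every alternative, and 24 of the 70 others passed under at least 1. SAHH reversed, at -0.37 under quantile scaling without tolerant array 3 (limma adjusted p = 0.0437) against 0.02. Cyclic loess, the joint leave-outs and the score without parent arrays were chosen after seeing the data. The causes were not tested, and leave-outs have fewer arrays.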

Other observations

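Some genes that differed between the bulks under drought lie next to each other in the gene table, which was noticed after their values were seen. LOC542774 and LOC780687 have 0 genes between them. Both were lower in the tolerant bulk (-4.01 and -1.64) and higher in C306 than in WL711 (4.01 and 3.14). LOC543197 and LOC543196 also have 0 genes between them. LOC606310 and LOC606312 have 1 between. Whether neighbours share a pattern more often than other genes was not tested.

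Tubulin genes not described above include Tubb5, with 4 tested probe sets at -0.59 to -1.90, of which 1 passed. That probe set stood at 6.17, 6.23 and 4.74 in the tolerant bulk and 7.24, 8.14 and 7.48 in the susceptible bulk. The methyltransferase gene PEAMT1, which makes phosphocholine, was at 14.48, 14.66 and 13.57 in the tolerant bulk and 13.66, 13.36 and 13.50 in the susceptible bulk, a difference of 0.73 that did not pass (limma adjusted p = 0.0552). Without tolerant array 3 it was 1.06 and passed (adjusted p = 0.000741).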
